A study of Homo sapiens with 94 samples.

Results

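To ask which genes still differed between the 2 highest doses of a TEAD inhibitor, tumors collected 24 h after a single oral dose of 200 mg/kg K-975 were set directly against tumors collected 24 h after 100 mg/kg. The comparison rests on 9 of the 94 tumors in the dataset, 5 at 200 mg/kg and 4 at 100 mg/kg. Its members were chosen by their dose and cage labels, and a further tumor at 100 mg/kg, replicate 5, was left out because it held only 7196 genes at an FPKM of at least 1 (the limit was 10000). All 94 tumors were subcutaneous NCI-H226 xenografts in SCID mice, which lack mature B and T cells, so every group shares 1 human line of malignant pleural mesothelioma, in which NF2 is deleted. The mice were females of the CB17 SCID strain, 6 to 8 weeks old according to the methods of the study. Beside the 9 tumors, the 24 h study gave 4 tumors with vehicle, 4 usable tumors at 30 mg/kg and 5 untreated tumors. K-975 was dissolved in an ethanol, Solutol and glucose vehicle. It was given at 20 mL/kg for 200 mg/kg and at 10 mL/kg for 100 mg/kg, vehicle was given at 20 mL/kg, and each dose was 1 cage group, so dose, volume and cage cannot be told apart. A separate study sampled at 3-6 h, with 10 tumors at each of these doses in 2 cage groups of 5, served as a second look at the same dose step in other animals.

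TEAD1, TEAD2, TEAD3 and TEAD4 are DNA-binding proteins that have little activity alone and switch on genes when the co-activators YAP1 or TAZ (gene WWTR1) dock on them. The Hippo kinases MST and LATS phosphorylate YAP1 and TAZ and keep them out of the nucleus, and NF2 (merlin) helps to recruit these kinases at the membrane, so that loss of NF2 in mesothelioma frees YAP1 and TAZ. TEAD proteins carry a palmitate in a central pocket, and K-975 occupies that pocket by bonding to its cysteine. NF2 was listed at 0 in all 9 tumors. All 15 mesothelial and mesothelioma markers passed the filter on low values, none was at 0 in the 9 tumors, and their summed level was 3477 to 4411 FPKM at 200 mg/kg and 3188 to 4359 FPKM at 100 mg/kg.

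The sequences to which the comparison points are promoters. The bases just upstream of the start of CCN2, the matricellular growth regulator CTGF that serves as a reference TEAD target, of ANKRD1, a second reference target, and of CDT1, the licensing factor that loads the replicative helicase, are printed because these genes are followed below tumor by tumor. They are the 250 bases before the RefSeq start (GRCh38.p14), 5′ to 3′ along the gene. Capitals mark GGAATG, the core word bound by TEAD proteins, in CCN2 and ANKRD1, and GCGGGAAA, the reverse complement of the E2F word TTTCCCGC, in CDT1. CDT1 was picked for the smallest p between the doses among replication and G1/S genes whose window held an E2F word. Its match is therefore part of that choice.
CCN2, chr6:131951373-131951622, minus strand: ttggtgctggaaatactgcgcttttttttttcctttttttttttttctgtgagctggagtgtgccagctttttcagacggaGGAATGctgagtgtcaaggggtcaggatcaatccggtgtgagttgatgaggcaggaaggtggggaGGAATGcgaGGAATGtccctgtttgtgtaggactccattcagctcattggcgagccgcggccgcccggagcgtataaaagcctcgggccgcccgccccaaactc
ANKRD1, chr10:90921088-90921337, minus strand: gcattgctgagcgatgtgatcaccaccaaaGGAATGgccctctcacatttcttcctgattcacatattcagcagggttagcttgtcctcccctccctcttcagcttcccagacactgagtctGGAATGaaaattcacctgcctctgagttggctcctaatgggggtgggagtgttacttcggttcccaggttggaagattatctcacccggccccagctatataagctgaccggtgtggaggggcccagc
CDT1, chr16:88803539-88803788, plus strand: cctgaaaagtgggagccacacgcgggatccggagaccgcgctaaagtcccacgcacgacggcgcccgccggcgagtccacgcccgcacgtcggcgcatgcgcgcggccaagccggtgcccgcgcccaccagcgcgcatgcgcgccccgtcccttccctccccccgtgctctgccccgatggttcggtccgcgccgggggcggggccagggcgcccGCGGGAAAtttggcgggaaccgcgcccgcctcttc

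In CCN2 the TEAD word began 169, 104 and 95 bases before the start, and in ANKRD1 220 and 128 bases before it. Searched on both strands, GGAATG was present in 11.9% of all 35116 promoter windows of this length in the RefSeq table. Among genes tested here that had a window, 13.4% of 10406 held it. It was found for 5 of the 9 pathway genes with a window (CCN2, ANKRD1, YAP1, AMOTL2 and AXL). For the YAP/TAZ target signature the count was 8 of 16 genes, for the positive TEAD effectors 41 of 186 (22%), and for the negative TEAD effectors 16 of 159 (10.1%). CCN1 and TEAD4 were not among the genes with a window. These matches describe the letters of the windows, and binding was not measured.

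No gene passed the test between 200 and 100 mg/kg at 24 h. Of 13036 genes tested by limma, 0 (0%) had an adjusted p under 0.05, and the smallest adjusted p was 0.445. At an unadjusted p under 0.05 there were 881 genes (6.76%), of which 419 (3.21%) were higher and 462 (3.54%) lower at 200 mg/kg. All values below are therefore descriptions of differences that did not pass, and the directions given are those of the group means. Because these are whole tumors, fewer cells that express a gene and less RNA of it per cell cannot be told apart.

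The plot of all tested genes shows a cloud centred on no difference. The median log2 difference was 0.00044, with 6482 genes (49.7%) below 0 and 6533 (50.1%) above it. The standard error of a gene's log2 difference, from a spread pooled over all tumor groups in the fit, had a median of 0.194. For 11633 genes (89.2%) the 95% interval of the difference lay within 2-fold in either direction, whereas for 1403 genes (10.8%) it reached further. Every 200 mg/kg tumor was above every 100 mg/kg tumor for 110 genes (0.844%), and below for 93 (0.713%). For 5 against 4 tumors that do not differ, chance separates a share of 0.0159 of genes in either direction. Both counts together are near that share. Log2 profiles of tumors at different doses correlated at 0.952 to 0.975 over 20 pairs, beside 0.956 to 0.977 over 10 pairs at 200 mg/kg and 0.955 to 0.966 over 6 pairs at 100 mg/kg. These are correlations across genes, which are not independent replicates.

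**Figure D1:**
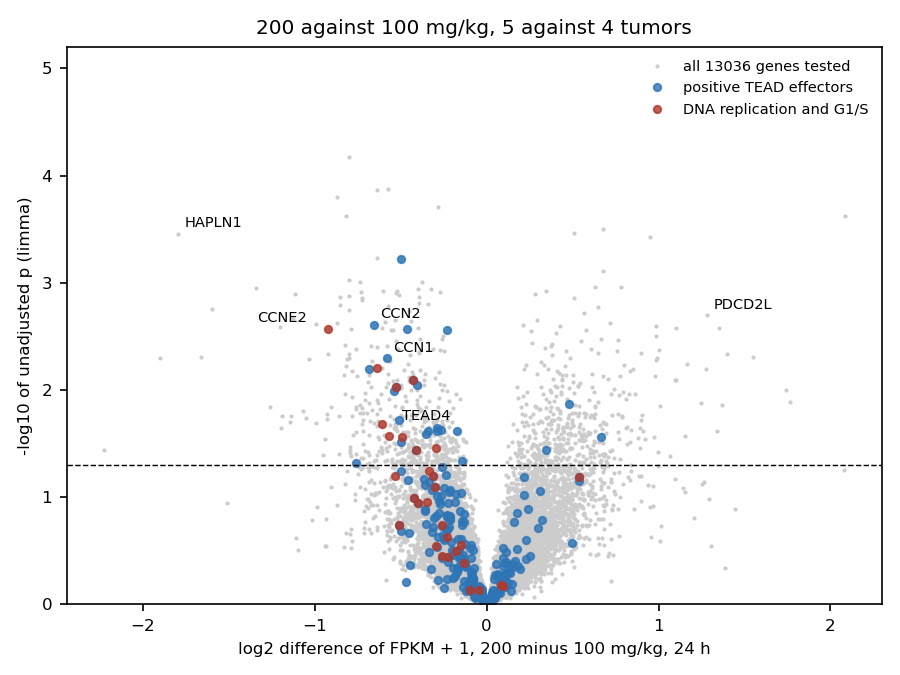
Each point is 1 of the 13036 genes tested at 24 h, with the log2 difference of 200 minus 100 mg/kg on the x axis and −log10 of the unadjusted limma p on the y axis. The dashed line is an unadjusted p of 0.05, blue points are positive TEAD effectors and red points are G1/S genes, most of which (27 of 30) sit left of 0, and no gene reached an adjusted p of 0.05.

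Among the reference targets, CCN1 (ENSG00000142871.16, chr1:85580760-85583962), which encodes the matricellular protein CYR61, had its lower group mean at 200 mg/kg. Its level was 71.9, 167, 94.9, 98.3 and 99.9 FPKM in the 5 tumors at 200 mg/kg and 158, 135, 112 and 233 FPKM in the 4 tumors at 100 mg/kg. Replicates 1, 3, 4 and 5 at 200 mg/kg lay below every 100 mg/kg tumor, but replicate 2 lay above 3 of them, so the groups overlapped. The means were 106 ± 35.9 (SD, n = 5) and 159 ± 52.5 (SD, n = 4), against 249 ± 35.0 FPKM (SD, n = 4) with vehicle. The log2 difference between the doses was −0.58 (SE 0.20, 95% interval −0.98 to −0.18, adjusted p = 0.576).

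CCN2 (ENSG00000118523.5, chr6:131948175-131951373) gave the same picture at lower levels. It stood at 2.38, 5.72, 4.37, 4.93 and 4.20 FPKM at 200 mg/kg and at 9.19, 8.12, 3.90 and 8.77 FPKM at 100 mg/kg, whereas the 4 vehicle tumors had 13.1, 12.9, 10.9 and 16.0 FPKM. All 9 treated tumors were below all vehicle tumors. Between the doses, 1 tumor bridged the groups: replicate 3 at 100 mg/kg was lower than 4 of the 5 tumors at 200 mg/kg. The log2 difference was −0.65 (SE 0.21, 95% interval −1.07 to −0.24, adjusted p = 0.506). Relative to vehicle, the log2 difference was −1.44 at 200 mg/kg and −0.79 at 100 mg/kg, values that share the vehicle tumors. At 30 mg/kg the mean was 9.29 FPKM, between that of 100 mg/kg and that of vehicle.

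ANKRD1, a nuclear ankyrin-repeat protein whose promoter carries the TEAD word like that of CCN2, did not follow this order. It was barely expressed, with 0.473, 1.58, 0.618, 0.235 and 0.950 FPKM at 200 mg/kg and 0.183, 0.828, 0 and 1.77 FPKM at 100 mg/kg. The groups overlapped over their whole range. Its log2 difference was 0.13 (95% interval −0.35 to 0.62), and the vehicle mean was 1.81 ± 0.315 FPKM (SD, n = 4).

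**Figure D2:**
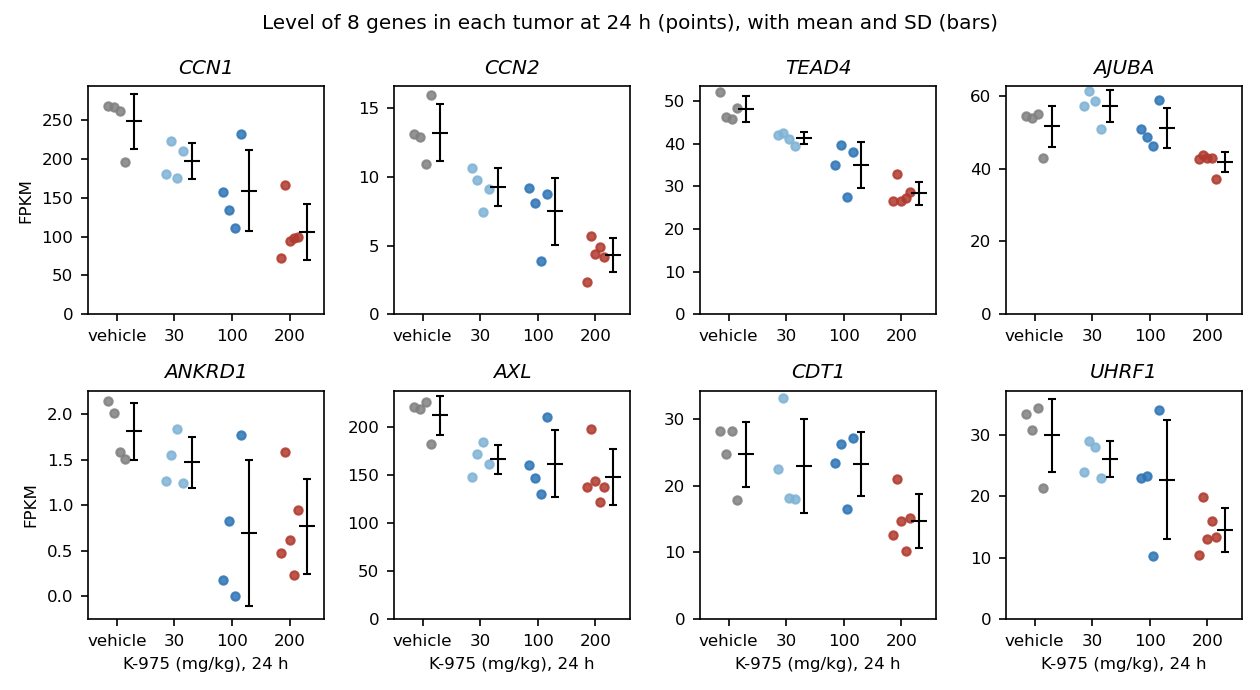
Each panel shows 1 gene, with FPKM on the y axis and vehicle, 30, 100 and 200 mg/kg at 24 h on the x axis. Points are tumors and bars are the mean ± SD; CCN1, CCN2, TEAD4 and CDT1 have their lowest mean at 200 mg/kg, AJUBA separates the 2 highest doses, and ANKRD1 and AXL overlap between them.

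Of the TEAD genes themselves, TEAD4 (ENSG00000197905.8, chr12:2959329-3040673) was the one whose interval excluded no difference. Its level was 26.5, 32.9, 26.6, 27.4 and 28.6 FPKM at 200 mg/kg and 35.0, 39.8, 27.6 and 38.0 FPKM at 100 mg/kg. Replicates 1, 3 and 4 at 200 mg/kg were below all tumors at 100 mg/kg, and all 9 treated tumors were below the vehicle tumors, the lowest of which had 45.8 FPKM. The log2 difference was −0.29 (SE 0.12, 95% interval −0.54 to −0.04, adjusted p = 0.708). For TEAD1 it was −0.07 (−0.28 to 0.13), for TEAD2 0.19 (−0.27 to 0.64) and for TEAD3 −0.02 (−0.31 to 0.26). The co-activators gave −0.13 for YAP1 (−0.31 to 0.05) and −0.06 for WWTR1 (−0.49 to 0.38).

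The remaining pathway genes had intervals that include 0. AMOTL2, an angiomotin-family protein that binds YAP1, had a log2 difference of −0.26 (−0.53 to 0.01), with means of 20.6 ± 1.52 FPKM (SD, n = 5) at 200 mg/kg and 25.3 ± 5.25 FPKM (SD, n = 4) at 100 mg/kg. LATS2, a Hippo kinase that is itself induced by YAP1, had −0.20 (−0.57 to 0.17). AXL, a receptor tyrosine kinase, had −0.13 (−0.36 to 0.10), and CRIM1, a transmembrane protein that binds BMPs, −0.03 (−0.17 to 0.12). Of the 13 pathway genes, 3 (CCN1, CCN2 and TEAD4) had an unadjusted p under 0.05, all lower at 200 mg/kg, against 3.54% of all genes.

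**Figure D3:**
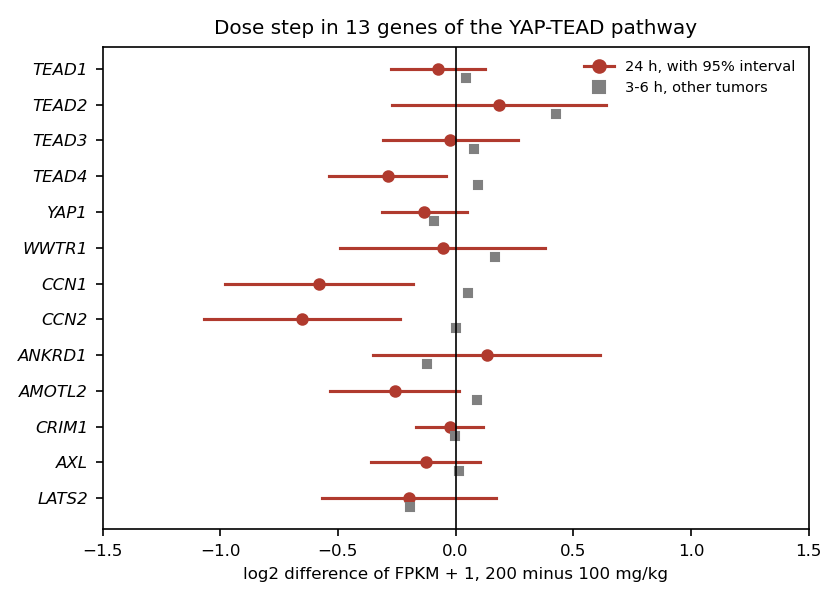
For the 13 pathway genes, red points are the log2 difference of 200 minus 100 mg/kg at 24 h with its 95% interval, and grey squares are the same difference in the separate 3-6 h study. CCN1 (−0.58), CCN2 (−0.65) and TEAD4 (−0.29) have intervals below 0 at 24 h, and their 3-6 h values are 0.05, 0.00 and 0.09.

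Upstream of YAP1, the list of Hippo kinases with the AMOT and AJUBA families held 24 tested genes, with a median log2 difference of −0.07 and 16 members below 0. AJUBA, a LIM protein that binds LATS kinases and lowers their activity, was among the 3 members that were lower at an unadjusted p under 0.05 (12.5%, against 3.54% of all genes) and separated the groups, as 0.713% of all genes did in this direction. It stood at 42.6, 43.7, 42.9, 43.0 and 37.2 FPKM at 200 mg/kg and at 50.8, 48.7, 46.3 and 58.9 FPKM at 100 mg/kg. All 5 tumors at 200 mg/kg were below all 4 at 100 mg/kg, whose mean of 51.2 ± 5.45 FPKM (SD, n = 4) was near the vehicle mean of 51.6 ± 5.75 FPKM (SD, n = 4). The log2 difference was −0.28 (SE 0.10, adjusted p = 0.622). The other members were WWC1 (KIBRA), a scaffold for LATS activation, at −0.17, and the kinase TAOK2 at −0.25. Without replicate 4 at 100 mg/kg the count was 1.

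The published YAP/TAZ target signature of 22 genes had 16 members below 0 and a median of −0.09. Its members at an unadjusted p under 0.05 were CCN1 and CCN2 alone (9.09%, against 3.54% lower over all genes). This count was 8 without replicate 2 at 200 mg/kg, 5 without replicate 3 at 100 mg/kg and 1 without replicate 4 at 100 mg/kg, and with 1 tumor left out the median ranged from −0.15 to −0.08. Relative to vehicle, its median was −0.46 at 200 mg/kg and −0.26 at 100 mg/kg.

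The study's own readout is a score of TEAD-dependent transcription, called deR, from genes that responded to YAP1 or TEAD perturbation in other datasets: 249 positive effectors, which follow YAP1-TEAD activity, and 233 negative effectors, which run opposite to it. Within a tumor all effectors are ranked together, and deR is the gap between the average ranks of both lists. It was 0.154, 0.191, 0.161, 0.168 and 0.157 at 200 mg/kg and 0.178, 0.187, 0.159 and 0.210 at 100 mg/kg. Replicates 1 and 5 at 200 mg/kg were below all 100 mg/kg tumors, and replicate 2 was above 3 of the 4. The means were 0.166 ± 0.0146 (SD, n = 5) and 0.184 ± 0.0211 (SD, n = 4), a difference of −0.0176 that did not pass a two-sided exact permutation test (p = 0.206, where the smallest p the design allows is 0.0159). At 30 mg/kg the mean was 0.203 ± 0.0121 (SD, n = 4).

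By gene, 240 positive effectors were tested, and 171 lay below 0 with a median log2 difference of −0.10. At an unadjusted p under 0.05, 21 were lower (8.75%, against 3.54% of all genes) and 3 higher (1.25%, against 3.21%). Those of smallest p were IDI1 (−0.50), an isomerase of isoprenoid synthesis, CCN2, NOC3L (−0.47), a nucleolar protein of ribosome assembly and replication licensing, and CAP2 (−0.23), a regulator of actin. CAP2 was 87.5 to 99.1 FPKM at 200 mg/kg and 105 to 116 FPKM at 100 mg/kg, with no overlap. Of 195 negative effectors, 126 lay above 0, with a median of 0.06, and 3 were higher and 2 lower at an unadjusted p under 0.05. Among these, ULK1, a kinase that starts autophagy, had a log2 difference of 0.48. Without replicate 4 at 100 mg/kg the count of lower positive effectors was 9, and without replicate 2 at 200 mg/kg or replicate 3 at 100 mg/kg it was 40 and 39.

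Among the lists with at least 5 tested members, the one with the largest share on 1 side was in the cell cycle. Of 30 genes of DNA replication and the G1/S transition, 27 lay below 0, and the median log2 difference was −0.31, beside 0.00044 over all genes. At an unadjusted p under 0.05, 9 were lower (30%, against 3.54% of all genes) and 0 higher, and none passed after adjustment. That count rests on the fit of all groups. With only the 2 groups compared in the fit, the median was again −0.31, but 2 of the 30 genes were lower. The list's median relative to vehicle was −0.60 at 200 mg/kg and −0.32 at 100 mg/kg.

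CCNE2, a cyclin that drives CDK2 at the start of S phase, separated the groups. It was 2.45, 4.08, 3.65, 2.01 and 2.97 FPKM at 200 mg/kg and 5.08, 7.48, 5.12 and 9.13 FPKM at 100 mg/kg, and its log2 difference was −0.93 (SE 0.30, adjusted p = 0.506). For CDT1 the values were 12.5, 21.0, 14.6, 10.2 and 15.2 FPKM against 23.5, 26.2, 16.5 and 27.1 FPKM, with a log2 difference of −0.64 (SE 0.23, adjusted p = 0.616). Replicate 2 at 200 mg/kg and replicate 3 at 100 mg/kg were the pair that overlapped. UHRF1, which keeps DNA methylation in place at replication forks, had 10.4, 19.9, 13.0, 15.9 and 13.3 FPKM against 23.0, 23.2, 10.3 and 34.0 FPKM, with a log2 difference of −0.53 (SE 0.20, adjusted p = 0.639). MCM2, a subunit of the replicative helicase, had a log2 difference of −0.43 (SE 0.16, adjusted p = 0.632), with means of 8.27 ± 2.11 FPKM (SD, n = 5) and 11.5 ± 2.73 FPKM (SD, n = 4).

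The same tumors stood apart across the list. At 100 mg/kg, replicate 3 was the lowest for 26 of the 30 genes and replicate 4 the highest for 21, and at 200 mg/kg replicate 2 was the highest for 22. The list's mean log2 level was 3.11, 3.68, 3.18, 3.40 and 3.28 at 200 mg/kg and 3.63, 3.74, 3.15 and 4.03 at 100 mg/kg, so the groups overlapped through these tumors. With replicate 4 at 100 mg/kg left out the median log2 difference was −0.18 with 3 lower genes, and with replicate 3 left out it was −0.48 with 16 lower genes. With the shallow tumor at 100 mg/kg kept, it was −0.04 with 2 lower genes.

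Genes of G2/M and mitosis leaned the same way with smaller differences. Of 30, 26 lay below 0, with a median log2 difference of −0.19. At an unadjusted p under 0.05, 1 was lower (3.33%, against 3.54% of all genes), CDK1, the mitotic kinase, at −0.35 (95% interval −0.70 to −0.0036). The 3 of next smallest p were CDCA3 (−0.50), the kinase AURKA (−0.43) and the kinesin KIF23 (−0.25). The list's mean log2 level was 4.04 ± 0.327 (SD, n = 5) at 200 mg/kg, 4.21 ± 0.331 (SD, n = 4) at 100 mg/kg, 4.15 ± 0.204 (SD, n = 4) at 30 mg/kg and 4.44 ± 0.272 (SD, n = 4) with vehicle, so the means did not follow the dose throughout. With 1 tumor left out the median ranged from −0.31, without replicate 2 at 200 mg/kg, to −0.05, without replicate 4 at 100 mg/kg. The count of lower genes was 8 without replicate 2 at 200 mg/kg or replicate 3 at 100 mg/kg, and 0 without replicate 1 or 3 at 200 mg/kg or replicate 2 or 4 at 100 mg/kg.

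**Figure D4:**
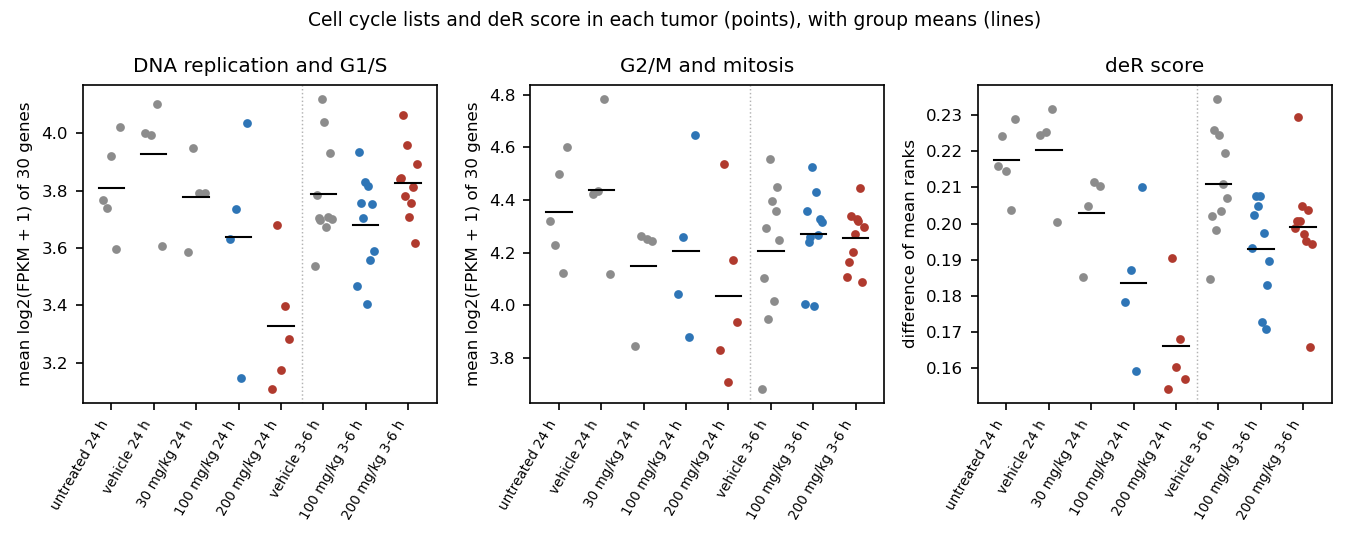
Points are tumors by group on the x axis, with the 24 h study left and the 3-6 h study right of the dotted line, lines are group means, and the y axes are the mean log2(FPKM + 1) of the G1/S list, that of the G2/M list, and the deR score. In all 3 panels 200 mg/kg has the lowest mean of the 24 h study (3.33, 4.04 and 0.166), and the ranges of 200 and 100 mg/kg overlap, each holding several tumors of the other dose for deR.

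Cell cycle genes and TEAD effectors are partly the same genes. The positive effectors held 14 of the tested G1/S genes (46.7% of that list and 5.83% of the effectors) and 8 of the G2/M genes (26.7% and 3.33%), while the negative effectors held 0 and 1. With the 22 shared genes left out, 218 positive effectors had a median of −0.09, and 18 were lower and 3 higher at an unadjusted p under 0.05.

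In the promoters, an E2F word (TTTCCCGC or TTTGGCGC, both strands) was found for 11 of the 26 G1/S genes with a window (42.3%), against 3.86% of the tested genes with a window and 1.93% of all windows. In CDT1, printed above, GCGGGAAA began 35 bases before the start. Among the positive effectors 12 of 186 genes held an E2F word (6.45%), and among the 9 pathway genes 0.

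Among sterol and lipid genes, the 2 lists had medians on opposite sides of 0. Of 24 genes of sterol synthesis and SREBP2 targets, 18 lay below 0 (75%, against 49.7% of all genes) with a median of −0.09, and 3 were lower at an unadjusted p under 0.05 (12.5%, against 3.54% of all genes), among them IDI1 (−0.50) and the decarboxylase MVD (−0.29). Without replicate 5 at 200 mg/kg or replicate 2 at 100 mg/kg the count was 1. IDI1 was 41.4, 45.7, 36.2, 34.9 and 23.2 FPKM at 200 mg/kg and 42.9, 54.1, 52.9 and 52.2 FPKM at 100 mg/kg. One tumor at 200 mg/kg, replicate 2, lay above the lowest tumor at 100 mg/kg and the other 4 lay below it. FASN, the fatty acid synthase, had a log2 difference of −0.40 (SE 0.12, adjusted p = 0.505), with means of 115 ± 23.0 FPKM (SD, n = 5), 149 ± 13.3 FPKM (SD, n = 4) and, with vehicle, 204 ± 17.0 FPKM (SD, n = 4). The list of fatty acid synthesis as a whole had a median of 0.10, with ACACB, the acetyl-CoA carboxylase of mitochondria, on the other side at 0.89. Of its 15 tested genes, 6 lay below 0 (40%, against 49.7% of all genes). At an unadjusted p under 0.05, 1 was higher and 1 lower (6.67% each, against 3.21% and 3.54% of all genes).

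Stress lists had medians on both sides of 0. The median log2 difference was 0.02 over 27 genes of the integrated stress and unfolded protein response, 0.07 over 20 NRF2 targets, −0.08 over 18 heat shock chaperones and −0.09 over 20 p53 targets. Of the heat shock genes, 12 of 18 lay below 0, and DNAJA1, CHORDC1 and STIP1 were lower at an unadjusted p under 0.05 (16.7%, against 3.54% of all genes). The count was 1 without replicate 5 at 200 mg/kg, or without replicate 2 or 4 at 100 mg/kg. Of the 20 NRF2 targets, 16 lay above 0, as 50.1% of all genes did, and 0 were higher at an unadjusted p under 0.05. With all 94 libraries, 12 of the 20 lay below 0. The 1 member that was lower (5%, against 3.54% of all genes) was GCLM, a subunit of the enzyme that makes the glutathione precursor, at −0.79. GCLM ran from 1.40 to 7.75 FPKM at 200 mg/kg and from 2.67 to 8.58 FPKM at 100 mg/kg, so the groups overlapped almost fully.

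Hypoxia genes differed little at 24 h as a list, whereas the median of the clock genes was above 0. Both lists held single genes on the higher side. The 28 hypoxia and glycolysis genes had a median log2 difference of 0.04, with KDM3A, a histone demethylase induced by low oxygen, at 0.63 and PDK1, the kinase that shuts pyruvate out of mitochondria, at 0.47. ENO1, an enzyme of glycolysis, was on the lower side at −0.18. At an unadjusted p under 0.05, 2 of the 28 were higher (7.14%, against 3.21% of all genes) and 1 lower (3.57%, against 3.54%). The 18 clock genes had a median of 0.19, the highest of the lists with at least 5 tested members, and 11 of them lay above 0. Without replicate 2 at 100 mg/kg the median was 0.06, and at 3-6 h it was −0.07. The clock repressor NR1D1 (0.49) was the 1 member at an unadjusted p under 0.05 (5.56%, against 3.21% of all genes higher). NR1D1 was 11.1, 8.27, 7.95, 6.62 and 8.49 FPKM at 200 mg/kg and 5.68, 3.95, 7.50 and 6.06 FPKM at 100 mg/kg. In the 3-6 h study its log2 difference was −0.53, the opposite sign. Times of day of dosing and collection were not given in the sources used here.

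**Figure D5:**
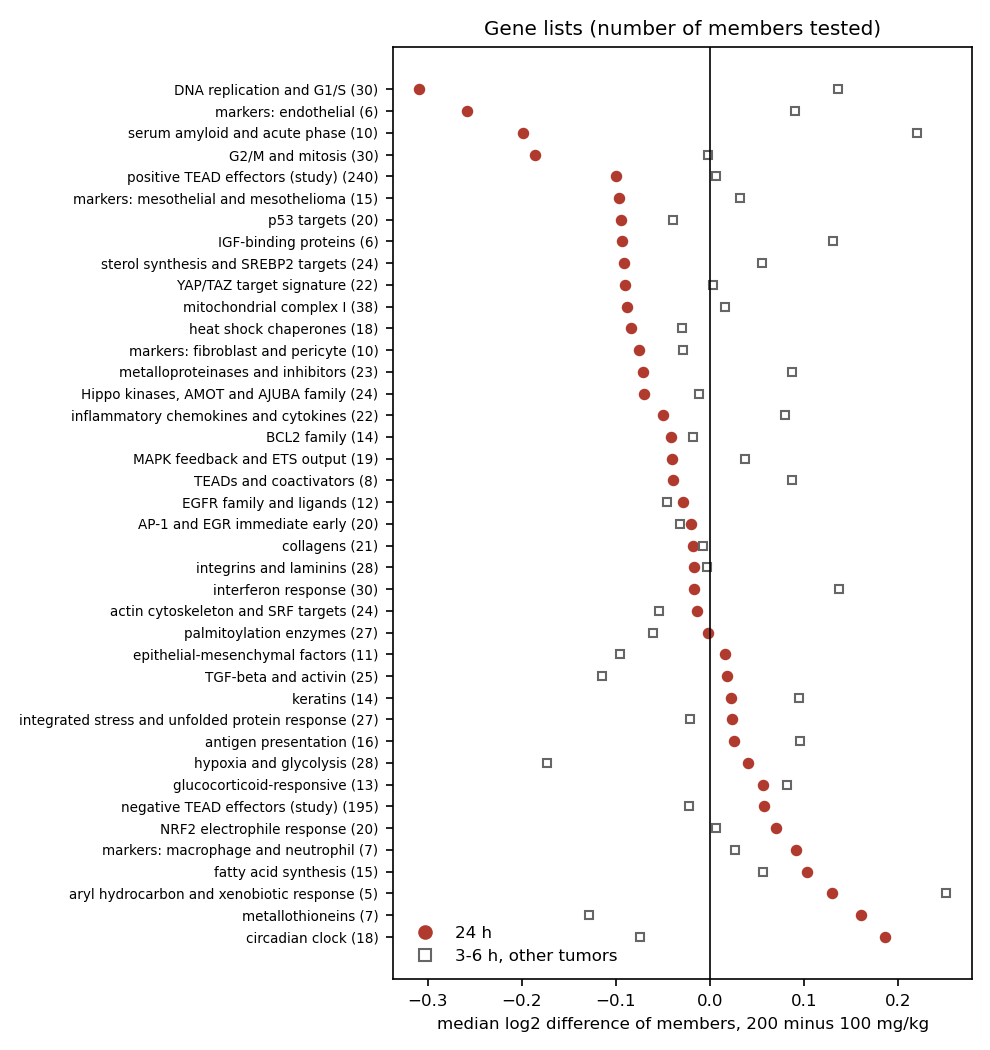
Each row is 1 of the 40 gene lists with at least 5 tested members, red points are the median log2 difference of 200 minus 100 mg/kg at 24 h, and open squares are the same median at 3-6 h. The G1/S list has the lowest median of these lists at 24 h (−0.31), and it is above 0 (0.14) at 3-6 h.

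Over all tested genes, whether in a list or not, single genes were taken in order of p from those whose groups did not overlap (110 higher and 93 lower), 10 in each direction, and none of them passed (adjusted p 0.445 to 0.576). Genes without overlap were about as many as chance gives, as stated above. LETMD1, a protein of the outer mitochondrial membrane, was 99.9, 85.9, 102, 102 and 94.9 FPKM at 200 mg/kg and 64.1, 68.7, 84.2 and 56.9 FPKM at 100 mg/kg, with a log2 difference of 0.51 (SE 0.14, adjusted p = 0.445). Every tumor at 200 mg/kg was above every one at 100 mg/kg, and the vehicle mean of 66.3 FPKM was near that of the lower dose. TRMT2A, a tRNA methyltransferase, had 14.1, 13.2, 17.0, 12.7 and 15.3 FPKM against 7.38, 7.43, 7.17 and 6.01 FPKM, a log2 difference of 0.95 (SE 0.26, adjusted p = 0.445). Its vehicle tumors spread from 5.55 to 15.5 FPKM, which covers every tumor at 100 mg/kg and all but the highest (17.0 FPKM) at 200 mg/kg. PDCD2L, a factor of ribosomal protein assembly, had the largest log2 difference of these 10, 1.28 (SE 0.40), at 4.30 to 9.15 FPKM against 0 to 4.00 FPKM.

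The others on the higher side were USF1 (0.68), a transcription factor of E-box sites, KDM3A (0.63), NUP50 (0.66) of the nuclear pore, HNRNPA1 (0.58), an RNA-binding protein, RNF215 (0.61), HIP1R (0.57) and ZNF592 (0.28), all as log2 differences. HNRNPA1 has many near-identical pseudogene copies, and how reads were shared among them was not given in the sources used here, so its level is uncertain. USF1 had a mean of 28.1 ± 3.08 FPKM (SD, n = 5) at 200 mg/kg and 17.5 ± 4.21 FPKM (SD, n = 4) at 100 mg/kg, with 23.6 FPKM with vehicle between them.

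On the lower side, HAPLN1, a link protein that ties hyaluronan to proteoglycans, had the largest log2 difference, −1.80 (SE 0.48, adjusted p = 0.445). It was 0.480, 0.796, 1.20, 1.92 and 1.04 FPKM at 200 mg/kg and 2.89, 7.41, 3.81 and 14.8 FPKM at 100 mg/kg, where replicate 4 stood far above the others. The vehicle mean of 2.14 FPKM was between the doses, with a log2 difference to vehicle of −0.58 at 200 mg/kg and 1.22 at 100 mg/kg. FAM111B, a protease whose relative FAM111A works at replication forks, had 2.41, 4.53, 3.67, 3.87 and 2.26 FPKM against 6.46, 7.72, 4.69 and 7.20 FPKM, with a log2 difference of −0.80 (SE 0.23, adjusted p = 0.505). The vehicle mean of FAM111B, 7.19 FPKM, was near that of 100 mg/kg.

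SLC25A17, a peroxisomal carrier of cofactors, led the lower genes by p, with a log2 difference of −0.82 (SE 0.21, adjusted p = 0.445). The remaining genes were RAVER1 (−0.37), an RNA-binding protein, the mitochondrial ribosomal protein gene MRPL23 (−0.33), POLR1G (−0.51) of RNA polymerase I, SEC61G (−0.40) of the translocon, KIAA1586 (−0.52), C5orf22 (−0.85) and TMED7-TICAM2 (−0.74). TMED7-TICAM2 is a read-through transcript that overlaps TMED7 and TICAM2, so its reads cannot be assigned to it alone.

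The 3-6 h study asked the same dose question in 20 other tumors. There too, 0 of 13036 genes (0%) passed, with a smallest adjusted p of 0.0596, and 924 genes (7.09%) had an unadjusted p under 0.05, 448 higher (3.44%) and 476 lower (3.65%). The reference targets showed no step: the median level of CCN1 was 119 FPKM at 200 mg/kg, 112 FPKM at 100 mg/kg and 204 FPKM with vehicle, and that of CCN2 was 5.64, 5.95 and 9.63 FPKM. The log2 differences between the doses were 0.05 for CCN1, 0.00 for CCN2, 0.09 for TEAD4 and −0.01 for AJUBA. deR was 0.199 ± 0.0153 (SD, n = 10) at 200 mg/kg and 0.193 ± 0.0137 (SD, n = 10) at 100 mg/kg, a difference of 0.0061 (two-sided permutation test, p = 0.369). That test pooled the cage groups of each dose. By cage group, deR ran from 0.199 to 0.229 and from 0.166 to 0.204 at 200 mg/kg. At 100 mg/kg it ran from 0.193 to 0.208 and from 0.171 to 0.197. The labels do not say which cage groups were sampled early or late in the 3-6 h span.

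Whether the dose step differed between 24 h and 3-6 h was tested directly, and 3 genes (0.023%) passed, all with a lower step at 24 h. At an unadjusted p under 0.05 there were 1070 genes (8.21%), 554 with a higher step at 24 h (4.25%) and 516 with a lower one (3.96%). SLC25A17 was 3.55, 6.86, 4.24, 5.48 and 4.40 FPKM at 200 mg/kg and 8.68, 12.2, 9.05 and 7.46 FPKM at 100 mg/kg at 24 h. At 3-6 h the order was the other way, with a lowest, median and highest of 5.89, 10.5 and 13.1 FPKM at 200 mg/kg and 3.68, 7.04 and 13.6 FPKM at 100 mg/kg. The step differed by −1.23 on the log2 scale (adjusted p = 0.0314).

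TONSL, which guards newly made DNA at stalled replication forks, was 2.72, 3.10, 3.92, 2.55 and 4.18 FPKM at 200 mg/kg and 6.53, 5.30, 3.62 and 6.31 FPKM at 100 mg/kg at 24 h, with overlap only through replicate 3 at 100 mg/kg. At 3-6 h its log2 difference was 0.29, and the steps differed by −0.87 (adjusted p = 0.0314). POLR3K, a subunit of RNA polymerase III, was 2.97, 1.49, 4.51, 3.79 and 4.88 FPKM against 8.45, 8.64, 3.76 and 8.20 FPKM at 24 h, again with replicate 3 at 100 mg/kg among the tumors of the higher dose. Its log2 difference at 3-6 h was 0.40, and the steps differed by −1.27 (adjusted p = 0.0314). These calls were lost with single tumors left out: 0 genes passed without replicate 1 or 4 at 200 mg/kg, or without replicate 1, 2 or 4 at 100 mg/kg, and 6 passed without replicate 3 at 100 mg/kg. The studies differ in time, animals and cages together, which cannot be told apart.

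KDM3A came next, with an adjusted p of 0.0548. It was 28.1, 35.6, 31.5, 42.1 and 31.9 FPKM at 200 mg/kg and 26.2, 16.7, 26.2 and 17.9 FPKM at 100 mg/kg at 24 h, with no overlap, and the vehicle mean was 33.2 FPKM. At 3-6 h the medians were 26.1 FPKM at 200 mg/kg and 34.7 FPKM at 100 mg/kg, a log2 difference of −0.40. For the G1/S list the median of the difference between the steps was −0.44, and 13 of its 30 genes (against 3.96% of all genes) were lower at an unadjusted p under 0.05, none of which passed. The mean log2 level of that list at 3-6 h was 3.90 and 3.76 in the 2 cage groups at 200 mg/kg and 3.74 and 3.62 in those at 100 mg/kg, against 3.77 and 3.81 with vehicle. For CCN1 and CCN2 the steps differed by −0.63 and −0.65 (adjusted p = 0.447 each).

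Genes that K-975 had already moved at 3-6 h, in tumors that share no library with the 24 h groups, give a set chosen apart from the 24 h step. At 3-6 h, 39 genes were lower (0.299%) and 17 higher (0.13%) with 100 mg/kg than with vehicle at an adjusted p under 0.05. At 24 h the 39 had a median log2 difference between the doses of −0.06, with 28 below 0. Of these, 6 were lower at an unadjusted p under 0.05, CCN2, CCN1, AJUBA, PTPN1 (−0.27), PLK2 (−0.41) and SH2D4A (−0.28), and MAMDC2 was higher (0.70), where 3.54% of all genes were lower and 3.21% higher. The 17 had a median of 0.16, with 13 above 0 and RNF150 higher at an unadjusted p under 0.05 (0.55).

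With 200 mg/kg, 7 genes were lower at 3-6 h (0.0537%), CCN1, CCN2, AJUBA, AMOTL2, ADAMTS15, FKBP4 and RUSC2, and 2 higher, ZMYND8 and RGS3. Between the doses at 24 h, 6 of the 7 lay below 0, from −0.65 for CCN2 to 0.09 for RUSC2, with a median of −0.26. ADAMTS15, a secreted protease of the matrix, had −0.24, and FKBP4, a co-chaperone of HSP90, −0.10. ZMYND8 and RGS3 had 0.09 and 0.19.

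Other cell types could enter a whole tumor, so their human-annotated markers were followed. Such cells come from the mouse host, and the treatment of mouse reads is not given in the sources used here. Levels from host cells and levels from the human line therefore cannot be told apart. The summed level of endothelial markers was 54.3 to 116 FPKM at 200 mg/kg and 52.3 to 117 FPKM at 100 mg/kg, with 6 of 12 tested and the defining genes PECAM1, CLDN5, ERG and EMCN at 0. For macrophage and neutrophil markers it was 133 to 212 and 159 to 215 FPKM (7 of 14 tested, AIF1, FCGR3A and MPO at 0), and for fibroblast and pericyte markers 895 to 1580 and 1053 to 1365 FPKM (10 of 12 tested, COL1A2 at 0). Erythroid markers summed to 0 to 1.22 and 0 to 4.78 FPKM, with HBA1, HBB, HBD and ALAS2 at 0, and adipocyte and muscle markers to 0.502 to 1.30 and 0.571 to 5.41 FPKM. Of the 6 endothelial genes tested, 5 lay below 0, with a median log2 difference of −0.26 (−0.49 to −0.16 with 1 tumor left out), and 1 was lower at an unadjusted p under 0.05 (16.7%, against 3.54% of all genes). That gene, the cadherin CDH5, was at 0.948 ± 0.514 FPKM (SD, n = 5) and 2.24 ± 0.932 FPKM (SD, n = 4), with a log2 difference of −0.73 (SE 0.22, adjusted p = 0.505). The 7 macrophage and neutrophil genes had a median of 0.09, and 1 was higher (14.3%, against 3.21% of all genes), the calcium-binding protein gene S100A9 at 0.83 (SE 0.32, adjusted p = 0.658). The 10 fibroblast and pericyte genes had a median of −0.07, with 7 below 0 and none at an unadjusted p under 0.05. The summed levels overlapped between the doses for each of these cell types, and the part of such cells in the differences above was not tested.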

How the data were processed

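RNA of tumor xenografts was made into libraries by probe-based target enrichment and sequenced as paired ends. The authors deposited FPKM, that is fragments scaled to transcript length and library total, with 1 column per tumor. STAR and GRCh38 are named in the submitters' processing notes, and the treatment of mouse reads is not given in the sources used here. FPKM hold no read counts, so the depth in reads is unknown and no counting interval was computed. Genes that reached an FPKM of 1 numbered 11424 to 11613 in the 9 tumors and 11344 to 11665 in the 91 libraries kept. The table had 20555 entries for 20239 gene IDs, after 316 further entries of 284 repeated IDs were left out. Blank cells (32, in 21 genes) were read as 0, and 20124 IDs matched a current symbol. Per-library columns not used numbered 0.

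Groups came from the labels of dose and cage, and the time of each study from the labels of its untreated tumors. Gene tests used limma 3.58.1 (R 4.3.3, eBayes with trend and robust) on log2(FPKM + 1), in 1 fit of 91 libraries and 19 groups, for the 13036 genes that reached an FPKM of 1 in 4 libraries or more. P-values were adjusted by the Benjamini-Hochberg method over all genes of a comparison, with a threshold of 0.05. They measure the spread between tumors of 1 line, pooled over the 19 groups of the fit. Standard errors and intervals use this pooled spread, so they are too narrow for genes that vary more in the doses compared. At 24 h the SD of the G1/S list's mean log2 level was 0.224 at 200 mg/kg and 0.368 at 100 mg/kg. At 3-6 h it was 0.126 and 0.170. For the negative effectors the SD was smaller at 24 h (0.0468 and 0.0351, against 0.0648 and 0.0520). Log2 differences on this scale understate those of low genes. deR was tested by permutation (scipy 1.17.1). The script was tested on simulated data. Python 3.11.15, pandas 2.3.3, numpy 2.4.6 and matplotlib 3.10.9 were used.

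Members, gene lists and named genes were chosen with earlier results of these data known. Named genes were 13 of the pathway, the 10 higher and 10 lower genes of smallest p with groups that do not overlap and a mean FPKM of at least 1, up to 4 members per list described (those of smallest p where none passed), and every gene of a comparison with 10 or fewer calls. Further genes at an unadjusted p under 0.05 were named after their values were seen. Alternatives were other filters, pseudocounts, scalings and sets of libraries, and leaving out each tumor in turn.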

Additional observations from a re-analysis of the deposited data

Results flagged for a closer look

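A tumor stood far from the others of its group in 4 of the 82 groups of values that were checked, where chance gives about 1 in 20. NUP50 was 18.95 FPKM in replicate 2 at 200 mg/kg, and 13.9 to 14.89 FPKM in the other 4 tumors. C5orf22 was 15.2 FPKM in replicate 3 at 100 mg/kg, and 20.86 to 21.04 FPKM in the other 3. POLR3K was 3.762 FPKM in that same tumor, and 8.2 to 8.641 FPKM in the others. The mean log2 level of the negative TEAD effectors was 3.453 in replicate 4 at 100 mg/kg, and 3.519 to 3.526 in the others. The difference between the dose steps at 24 h and at 3-6 h passed the test for SLC25A17 (−1.233), TONSL (−0.866) and POLR3K (−1.272).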

How the results depend on the processing

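At 24 h, no filter on low values gave 1 gene at an adjusted p under 0.05 (SPDYC, −0.31), and leaving out 1 tumor gave 0 to 3. Without replicate 1 at 100 mg/kg the gene was KRTAP21-2, listed at 0 in every 200 mg/kg tumor, and without replicate 3 at 100 mg/kg TONSL (−0.73) and POLR3K (−1.12) were added. The other settings gave 0. At an unadjusted p under 0.05 the settings gave 563 (only the groups compared) to 1569 genes. The latter was with all 94 libraries, where 1363 were higher, 206 lower and the median of all genes was 0.124. Leaving out 1 tumor gave 697 to 1251. At 3-6 h, 1 gene (PLAT, 0.76 to 0.77) passed with a filter at an FPKM of 5, with quantile normalization and with median ratio scaling. For the difference between the steps, 1 gene (SEC61G) passed with only the groups compared, 0 with all 94 libraries, and 0 to 6 with 1 tumor left out. The cause was not tested. deR kept its direction under every alternative (−0.0258 to −0.00884 with 1 tumor left out) and none passed.

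For the named genes, 574 of 592 values kept their direction and 18 did not, none of them past the threshold. With all 94 libraries these were TEAD2 (−0.11), TEAD3 (0.72), YAP1 (0.078), SEC61G (0.96) and C5orf22 (0.017). With 1 tumor left out, values ranged from −0.13 to 0.0090 for TEAD1, −0.13 to 0.044 for TEAD3, −0.18 to 0.063 for WWTR1, −0.083 to 0.41 for ANKRD1, −0.078 to 0.031 for CRIM1 and −0.24 to 0.0057 for AXL. No paired analysis was possible because the groups are different animals and the labels carry no replicate numbers. Levels listed at 0 and genes near 1 FPKM are limited by the unknown depth.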

Other observations

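The replication-dependent histone genes, whose mRNAs are made in S phase, were collected as a list after their values were seen, and they leaned to the lower side at 200 mg/kg. Of 60 tested, 53 lay below 0, with a median log2 difference of −0.36, and 20 were lower and 1 higher at an unadjusted p under 0.05, beside 3.54% and 3.21% of all genes. None passed after adjustment. H3C1 was 20.6, 28.9, 16.3, 4.81 and 9.88 FPKM at 200 mg/kg and 29.8, 32.8, 21.9 and 43.3 FPKM at 100 mg/kg, a log2 difference of −1.12 (SE 0.33, limma adjusted p = 0.505). Replicate 2 at 200 mg/kg lay above the lowest tumor at 100 mg/kg, and the other 4 lay below it. H3C7 (−0.80) and H2BC8 (−0.73) were lower too, while H3C6 was the gene on the higher side (1.40). The list's median was 0.05 at 3-6 h, and relative to vehicle at 24 h it was −0.59 at 200 mg/kg and −0.22 at 100 mg/kg. With 1 tumor left out the median ranged from −0.48 to −0.23, and the count of lower genes was 9 without replicate 4 at 100 mg/kg and 31 without replicate 3 at 100 mg/kg. With all 94 libraries the median was −0.09, with 5 lower. These genes are near-identical copies that share reads, so the level of a single one is uncertain, and most of their mRNAs lack a poly(A) tail.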
